A study of Rattus norvegicus with 12 samples.

Results

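Mast cells were followed in the rat left ventricle through 6 genes that mark them: Tpsb2, Tpsab1, Cma1 and Cpa3, which encode granule proteases, and Kit and Fcer1a, which encode surface receptors. All probe sets whose only gene symbol was one of these were taken, which gave 6 of 31042 probe sets, 1 for each gene, and the array names 14217 genes in all. Each probe set combines several short probes designed against the same transcript. The genes were chosen by an earlier result in these same arrays: Tpsb2 had been seen lower with voluntary exercise than with short activity sessions. Values in that comparison are therefore described without a test.

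Affymetrix rat expression arrays were hybridised with left ventricle RNA of female Sprague-Dawley rats aged 16 months. Rats of the EX group could exercise voluntarily all their lives, those of the PA group spent 1 h active in a large box 2 times a week, and those of the SED group lived in standard cages. Each group had 4 arrays, and 12 arrays were used in all. Each array held RNA pooled from several animals. With the stated 12 animals per group and 4 to a pool, 3 arrays would be filled where 4 are listed, so the number of animals behind each array is not settled and the errors below measure the spread between pooled arrays. Ventricle is a mixture of cell types, and in such bulk RNA fewer cells of a type and less RNA per cell cannot be told apart. As a check of the tissue, the heart muscle genes Myh6, Tnnt2 and Myl2 had mean log2 signals of 13.15, 13.10 and 13.10. The arrays had medians of 5.64 to 5.72, and the interquartile range was 3.89 to 4.04 in EX and PA and 3.58 to 3.86 in SED. The first SED array had the lowest mean correlation with the others, 0.964 against 0.987 to 0.989, and the highest 3' minus 5' Gapdh signal, 1.56 against 0.96 to 1.35.

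Mast cells are resident immune cells that mature in tissues under stem cell factor, the ligand of Kit. They store proteases, histamine and heparin in granules and release them when IgE bound to its receptor is cross-linked. In the heart they lie mostly around vessels and between muscle fibres, and human chymase can form angiotensin II while tryptase can activate the receptor PAR2.

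Tpsb2 and Tpsab1 encode tryptases, and in the RefSeq annotation of GRCr8 they lie near each other on chromosome 10. Tpsb2 lies at chr10:14886310-14888102 on the plus strand and Tpsab1 at chr10:14864887-14867302 on the minus strand, with 19007 bases between them. Cpa3 lies at chr2:104641619-104673253, Cma1 at chr15:33387351-33390133, Kit at chr14:32901615-32978895 and Fcer1a at chr13:88218427-88224723. The stretch from 250 bases before to 50 bases after the start of transcription is shown for the 3 genes of highest signal, because Tpsb2 is the member for which the genes were chosen and the others are the next brightest. For Cpa3, Kit and Fcer1a the start used lies inside the gene interval given above, not at its edge. Capitals mark matches on either strand to GATAA, the core letters bound by GATA factors, or to an E-box that MITF can bind, CACATG. The palindromic E-box CACGTG was searched too. The 3 motifs do not overlap one another in these stretches.
Tpsb2, chr10:14886060-14886359, plus strand: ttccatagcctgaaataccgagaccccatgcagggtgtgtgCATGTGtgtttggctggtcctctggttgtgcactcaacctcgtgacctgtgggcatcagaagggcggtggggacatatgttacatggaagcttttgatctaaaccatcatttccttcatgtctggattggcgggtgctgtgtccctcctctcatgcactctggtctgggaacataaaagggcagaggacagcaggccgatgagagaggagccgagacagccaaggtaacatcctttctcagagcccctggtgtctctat
Tpsab1, chr10:14867253-14867552, minus strand: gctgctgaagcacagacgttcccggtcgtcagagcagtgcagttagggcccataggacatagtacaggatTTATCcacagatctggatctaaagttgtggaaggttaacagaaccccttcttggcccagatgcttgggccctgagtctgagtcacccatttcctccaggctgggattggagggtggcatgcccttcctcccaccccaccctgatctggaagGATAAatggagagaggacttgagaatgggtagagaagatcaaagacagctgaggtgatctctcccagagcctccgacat
Cpa3, chr2:104673188-104673487, minus strand: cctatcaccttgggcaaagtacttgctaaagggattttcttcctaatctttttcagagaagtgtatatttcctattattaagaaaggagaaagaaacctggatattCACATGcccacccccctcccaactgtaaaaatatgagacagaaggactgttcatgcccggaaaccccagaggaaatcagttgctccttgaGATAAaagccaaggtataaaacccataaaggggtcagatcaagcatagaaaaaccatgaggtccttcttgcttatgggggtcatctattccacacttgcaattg
GATAA was found in 4 of the 6 members, at -180 and -29 in Tpsab1, -54 in Cpa3, -63 in Cma1 and -93 in Fcer1a. Positions are counted from the start of transcription used for each stretch. GATAA was found in 26.5% of all 33469 promoter stretches of this length. CACATG was found in 3 of 6, at -209 in Tpsb2, -144 in Cpa3 and -208 in Fcer1a, against 14% of all stretches. CACGTG was found in 0 of 6 members and in 6.4% of all stretches. The Tpsb2 and Tpsab1 stretches were identical at 61.3% of aligned bases, and the other pairs of members at 50.5 to 59.9%.

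Most of these genes were dim. The mean log2 signal over the 12 arrays was 5.45 for Tpsb2, 4.82 for Cpa3, 4.59 for Tpsab1, 4.26 for Cma1, 4.03 for Kit and 3.26 for Fcer1a, against a median of 5.68 over all probe sets. Signals of different probe sets were not set against each other as transcript amounts, since each probe set has its own response. A list of 48 genes that ventricle should not express, such as photoreceptor, pancreatic and sperm genes, gave a measure of background. Of these genes 45 were on the array. The 54 probe sets of the list had means of 2.52 to 7.19, with a median of 3.76 and a 90th percentile of 5.22. Krt10 at 7.19 and Cyp2e1 at 7.17 lay far above the median, and Alb ran from 4.00 to 7.99 between arrays. Whether such genes were truly expressed was not tested, so this percentile may lie above true background. A member was called near background when its mean lay under that percentile or outside the upper 60% of all probe sets, a limit at 4.94. By this rule Tpsab1, Cpa3, Cma1, Kit and Fcer1a were near background, and Tpsb2 lay just above both limits by its mean over all arrays. By group, Tpsb2 was above the 90th percentile in PA and SED but under it in EX, where 3 of 4 arrays were below 5.22. Of the 54 background probe sets, 5 were brighter than Tpsb2 and 12 were brighter than Cpa3.

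**Figure D1:**
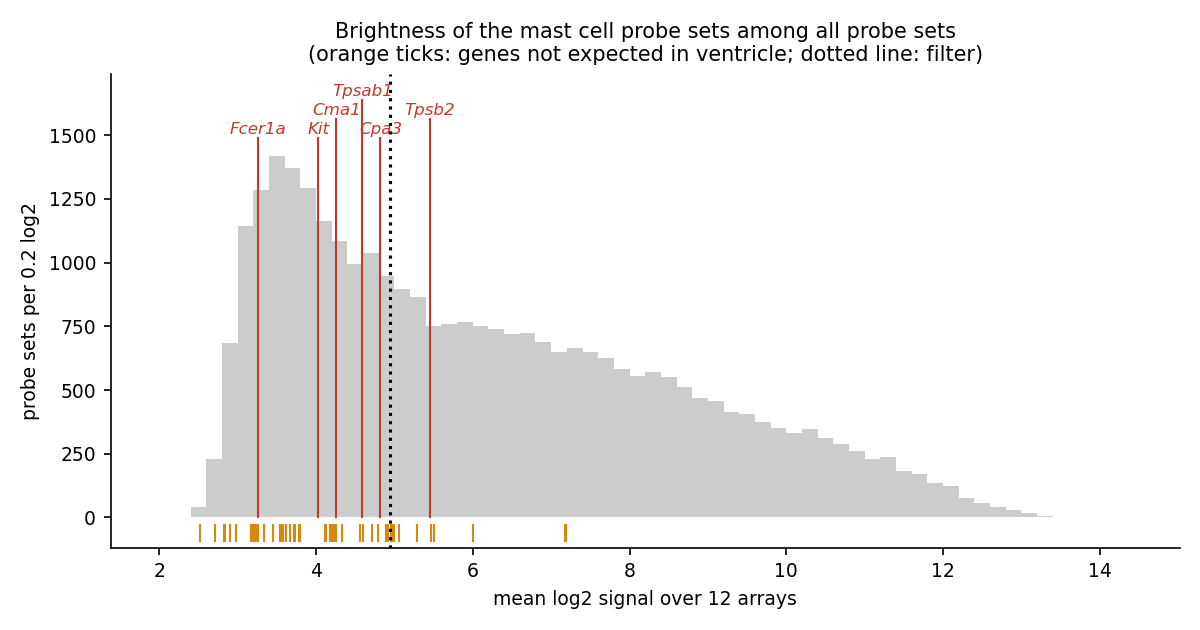
Histogram of the mean log2 signal over 12 arrays (x axis) of all 31042 probe sets (y axis, probe sets per 0.2 log2). Red lines mark the 6 mast cell genes, orange ticks the genes not expected in ventricle, and the dotted line the limit of the upper 60% at 4.94. Tpsb2 at 5.45 is the only mast cell gene to the right of the dotted line.

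Tpsb2 was lowest in EX. Its log2 signals were 5.07, 5.05, 5.31 and 5.18 in EX, 5.69, 5.50, 5.70 and 5.73 in PA, and 5.46, 5.69, 5.25 and 5.77 in SED. All 4 EX arrays lay below all 4 PA arrays with a gap of 0.19, while the SED arrays reached from inside the EX range to just above the highest PA array. The means were 5.15 ± 0.12 in EX, 5.66 ± 0.10 in PA and 5.54 ± 0.24 in SED (SD, n = 4 each). EX minus PA was -0.50 ± 0.12 (SE from limma), and this is the value for which the gene was chosen. Since the EX mean lay under the background limit, no fold change is given. Groups without overlap in the lower direction made up 1.45% of the 18626 brighter probe sets in that comparison, from which nothing is read here. Against SED, the EX difference was -0.39 ± 0.12, with all 4 EX arrays below the SED mean and 1 EX array (5.31) above 1 SED array (5.25). PA minus SED was 0.11 ± 0.12. No p is given for Tpsb2 in these comparisons either, since they use the arrays from which it was picked. Adding an offset of 32 on the linear scale, which damps dim signals, brought EX minus PA to -0.29 and EX minus SED to -0.22.

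Tpsab1, the nearby tryptase gene, had about the same mean in each group. Its signals were 4.57, 4.57, 4.72 and 4.30 in EX, 4.88, 4.15, 4.83 and 4.58 in PA, and 4.44, 4.78, 4.84 and 4.44 in SED. The 3 groups overlapped over most of their range. The difference EX minus SED was -0.09 ± 0.17 (limma adjusted p = 0.812, 95% interval -0.45 to 0.28), PA minus SED was -0.01 (adjusted p = 0.97, interval -0.38 to 0.35) and EX minus PA was -0.07. The 2 genes are close relatives, and how far each probe set also binds the other transcript was not tested.

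Cma1 encodes chymase. Its signals were 4.31, 4.02, 4.17 and 4.40 in EX, 4.52, 4.28, 4.11 and 4.40 in PA, and 3.54, 4.25, 4.47 and 4.66 in SED. The groups overlapped, and SED had both the lowest and the highest array. The EX and SED means differed by -0.005 ± 0.20 (limma adjusted p = 0.992, 95% interval -0.45 to 0.44). PA minus SED was 0.10 (adjusted p = 0.82, interval -0.35 to 0.54), and EX minus PA was -0.10. Without the first SED array these differences to SED were -0.23 for EX and -0.13 for PA.

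Cpa3 encodes carboxypeptidase A3, which trims peptides within the granule. Its signals were 4.53, 4.63, 5.10 and 4.57 in EX, 4.88, 4.32, 5.18 and 5.32 in PA, and 4.41, 5.43, 4.71 and 4.78 in SED. Arrays of all 3 groups were spread over the same range, with SDs of 0.26 in EX, 0.44 in PA and 0.43 in SED. Cpa3 differed by -0.12 ± 0.25 in EX minus SED (limma adjusted p = 0.813, 95% interval -0.66 to 0.41), PA minus SED was 0.09 (adjusted p = 0.863, interval -0.44 to 0.63) and EX minus PA was -0.22.

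Kit encodes the stem cell factor receptor, which also marks melanocytes and interstitial cells of Cajal. Its signals were 3.55, 3.93, 3.92 and 3.85 in EX, 3.92, 3.63, 4.57 and 4.50 in PA, and 4.04, 4.12, 3.99 and 4.32 in SED. Every EX array lay below every SED array, by a gap of 0.06 between 3.93 and 3.99, and the PA arrays spanned both groups. Kit differed by -0.30 ± 0.19 in EX minus SED and did not pass the test (limma adjusted p = 0.421, 95% interval -0.72 to 0.11). Of all 31042 probe sets, 6.07% were lower in EX than in SED without overlap. The difference was -0.19 after quantile normalization and -0.10 with the offset of 32. PA minus SED was 0.04 (adjusted p = 0.932, interval -0.38 to 0.45), and EX minus PA was -0.34.

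Fcer1a encodes the alpha chain of the IgE receptor. It was the dimmest member, with signals of 2.98, 3.05, 3.04 and 3.87 in EX, 3.87, 3.20, 2.98 and 3.15 in PA, and 3.04, 3.11, 3.55 and 3.24 in SED. The fourth EX array and the first PA array, both at 3.87, stood above the rest, and the other arrays of the 3 groups overlapped. For Fcer1a, EX minus SED was 0.00 (limma adjusted p = 1.0, 95% interval -0.50 to 0.50), PA minus SED was 0.06 (adjusted p = 0.899, interval -0.43 to 0.56) and EX minus PA was -0.06.

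**Figure D2:**
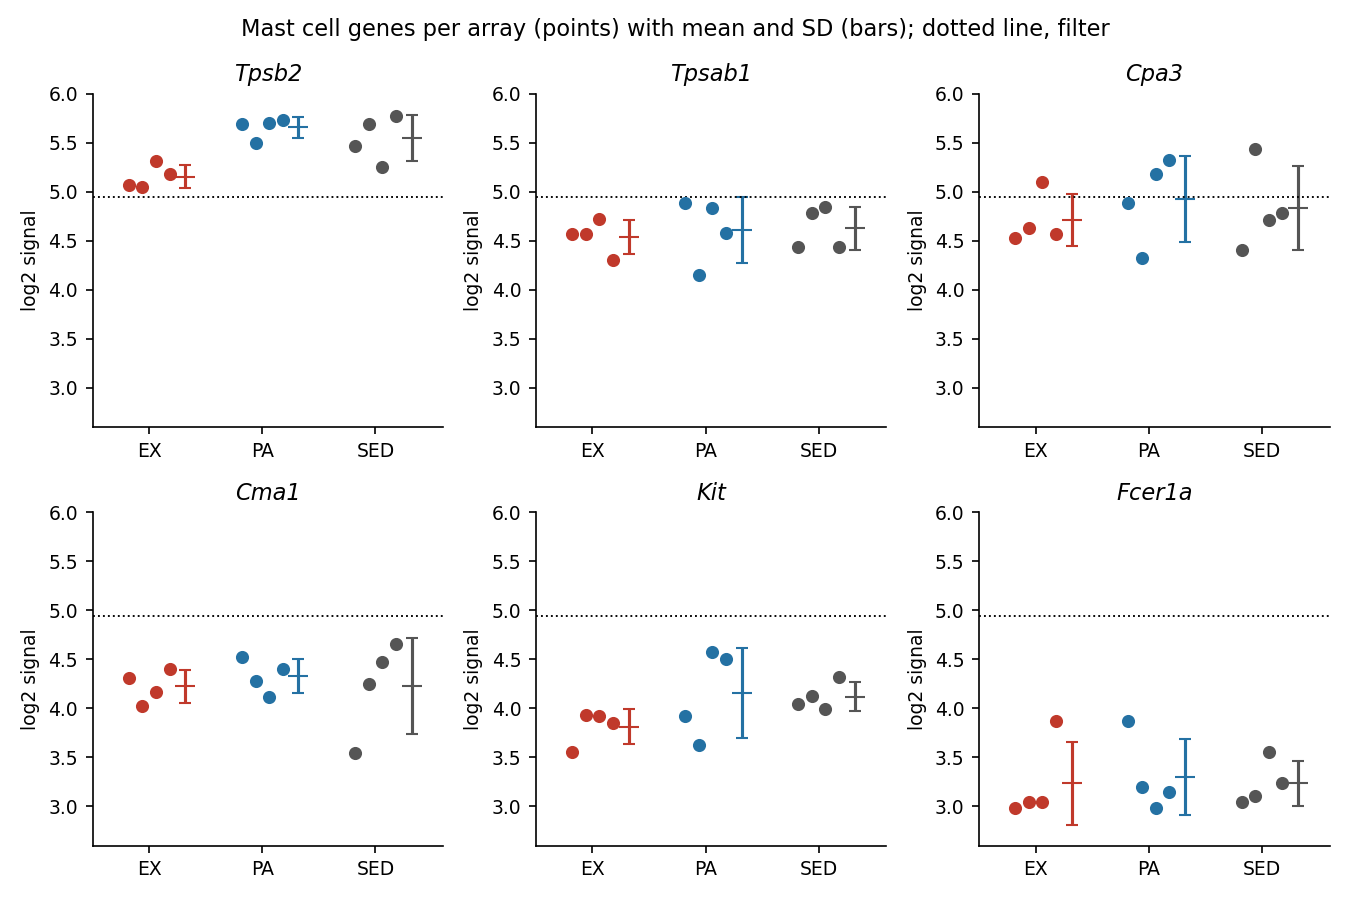
Log2 signal (y axis) of each mast cell gene in the 4 EX, 4 PA and 4 SED arrays (x axis). Points are arrays, the bars beside them give the mean and SD, and the dotted line is the limit of the upper 60% at 4.94. Tpsb2 in EX lies at 5.05 to 5.31, below PA at 5.50 to 5.73, while the groups overlap for Tpsab1, Cpa3, Cma1 and Fcer1a.

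Counted over the 6 genes, the mean was lower in EX than in SED for 5 and equal for 1, with a median difference of -0.10, while 54.1% of all 31042 probe sets had a lower mean in EX. In PA minus SED 5 means were higher and 1 was lower, with a median of 0.08, while 54.9% of all probe sets were lower in PA. EX minus PA was below 0 for 6 of 6, with a median of -0.16, beside 49.8% of all probe sets, and nothing is read from this count since the genes were chosen on that comparison. The EX comparisons share the EX arrays, and the comparisons with SED share the SED arrays. In the fit over all 31042 probe sets, limma called 0 of the 5 members other than Tpsb2 in EX minus SED or in PA minus SED at an adjusted p of 0.05. It called 0 of 31042 probe sets in each of the 3 comparisons, a background of 0%. It likewise called 0 of the 18626 brighter ones. Of all probe sets 5514 (17.8%) had an unadjusted p under 0.05 in EX minus SED, 5494 (17.7%) in PA minus SED and 920 (2.96%) in EX minus PA. Among the brighter ones these counts were 2906 (15.6%), 2840 (15.2%) and 534 (2.87%). Of the 5 members other than Tpsb2, 0 had an unadjusted p under 0.05 in the comparisons with SED.

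Dim probe sets as a whole were lower in EX and PA than in SED, and all members but Tpsb2 lay in this dim range. Below the limit of 4.94, the median difference was -0.14 for EX minus SED and -0.15 for PA minus SED, with 75.3% and 79.1% of 12416 probe sets lower. It was 0.01 for EX minus PA. The per-array median of these dim probe sets was 3.71 to 3.81 in EX, 3.69 to 3.77 in PA and 3.81 to 3.99 in SED. Read against probe sets within 0.25 log2 of the same brightness, the EX minus SED difference of -0.39 for Tpsb2 stood beside a median of -0.07, and that of -0.30 for Kit beside -0.16. The EX minus SED differences of Tpsab1, Cpa3 and Cma1, at -0.09, -0.12 and -0.005, lay above their medians of -0.16, -0.15 and -0.17, and Fcer1a at 0.00 lay above -0.12. In PA minus SED, all 6 members lay above the medians of their brightness, which ran from -0.18 for Cma1 to -0.08 for Tpsb2. In EX minus PA these medians were between 0 and 0.02. The part of this shift in the members' values was not tested. Of the genes that ventricle should not express, 9 lay above the limit. In EX minus SED 6 of these were lower and 3 higher, with a median of -0.19. Gcg, with a mean of 5.47 close to that of Tpsb2, differed by -0.37, every EX array lying below every SED array. Alb, with a mean of 5.29, differed by 0.49. Without the first SED array the median was -0.16, and Gcg differed by -0.22. Whether Tpsb2 stood apart from such genes was not tested.

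**Figure D3:**
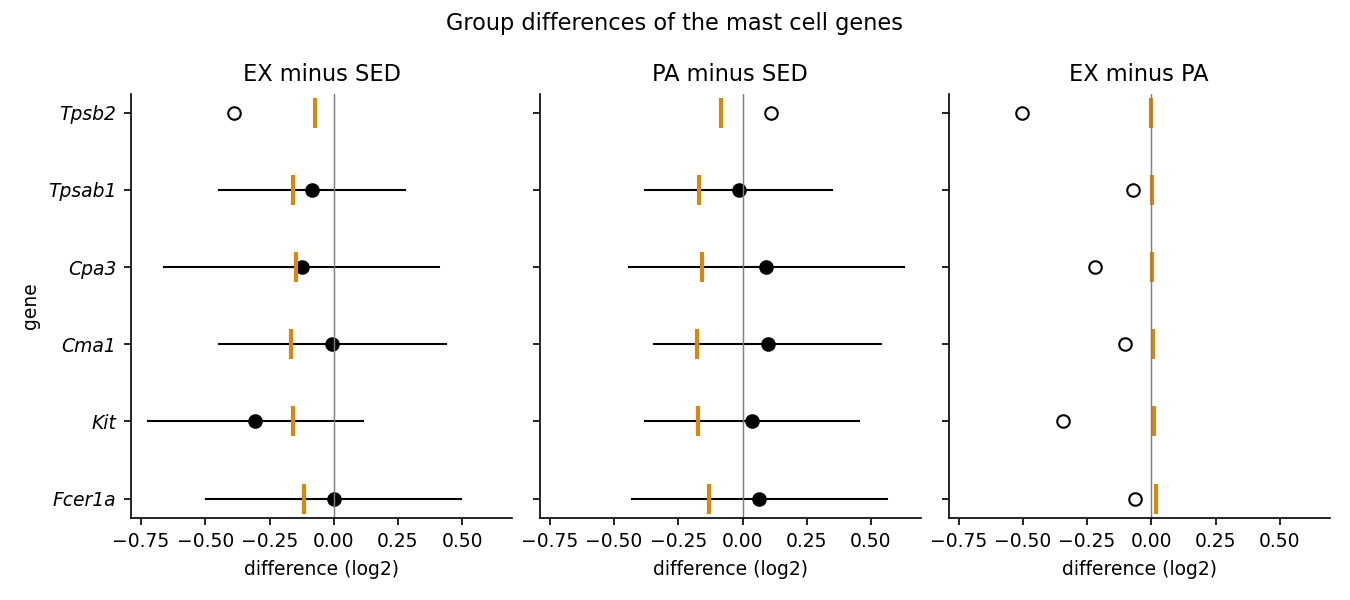
Difference in log2 signal (x axis) for each mast cell gene in EX minus SED, PA minus SED and EX minus PA. Filled points carry their 95% interval from limma, open circles are differences described without a test, and orange ticks give the median difference of probe sets within 0.25 log2 of the same brightness. The intervals of the tested genes all include 0, and Tpsb2 has the lowest EX minus PA value at -0.50.

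The members moved together from array to array only in part. Of 15 pairs of members over the 12 arrays, 12 had a Pearson r above 0, with a median r of 0.21. The highest r was that of Tpsb2 with Kit, at r = 0.683, with Spearman's rho = 0.689. No p is given for pairs with Tpsb2, since its low EX values, for which it was chosen, enter them. The r of Tpsb2 with Kit was 0.62 without the first and second EX arrays, the 2 farthest from the median of Tpsb2, and 0.542 after group means were removed. Cpa3 with Kit had r = 0.676 and rho = 0.655 (permutation p = 0.0161 and 0.0245, adjusted over the 15 pairs 0.121 and 0.0919), and r was 0.645 without the fourth PA and second SED arrays and 0.665 with group means removed. Tpsab1 with Cpa3 had r = 0.647 and rho = 0.677 (permutation p = 0.0244 and 0.0183, adjusted 0.122 and 0.0915), and r was 0.586 without the first and second PA arrays and 0.642 with group means removed. The highest rho was that of Cma1 with Fcer1a, at rho = 0.741 (permutation p = 0.00733, adjusted 0.0915). Its r was 0.52 (permutation p = 0.088, adjusted 0.264), or 0.752 without SED arrays 1 and 4 and 0.513 with group means removed. Cma1 and Fcer1a both lay near background, with means of 4.26 and 3.26. The 2 tryptase genes, Tpsb2 and Tpsab1, had r = 0.186 and rho = 0.176. By these two-sided permutation tests 0 of the 10 pairs without Tpsb2 passed an adjusted p of 0.05, and 2 had an unadjusted p under 0.05 for r and 3 for rho. The points share the arrays and their scaling. The first SED array was lowest of its group for 3 of the 6 members and tied for lowest for 1, and the second PA array was lowest of its group for 4 of 6.

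**Figure D4:**
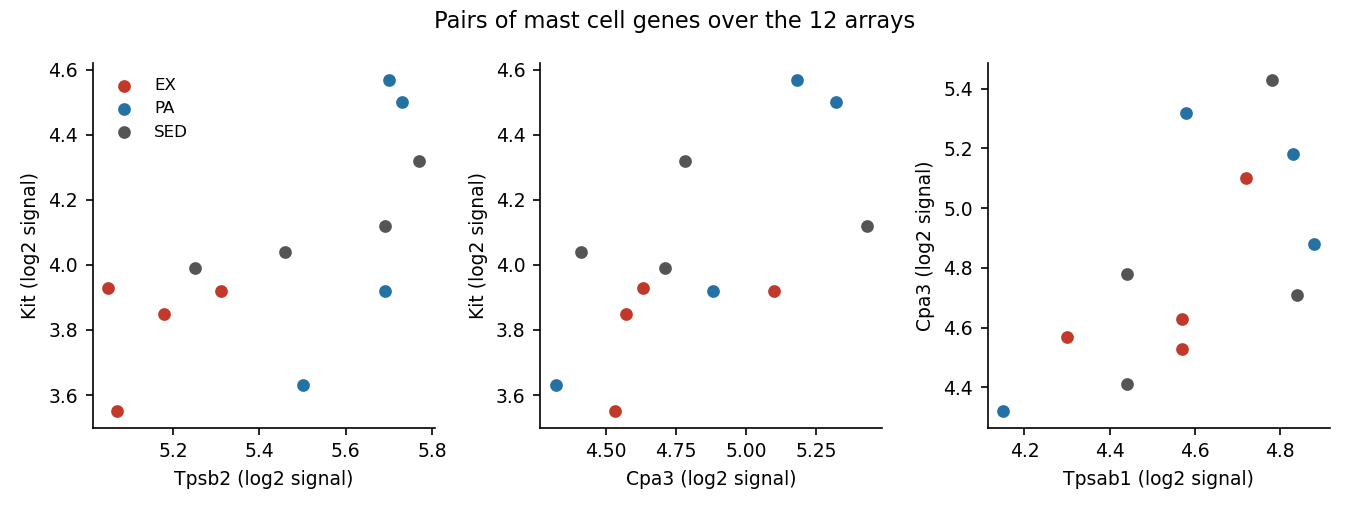
Log2 signals of 3 pairs of mast cell genes, 1 point per array, coloured by group (EX, PA, SED): Kit (y axis) against Tpsb2, Kit against Cpa3, and Cpa3 against Tpsab1. These are the pairs with the highest r, at 0.683, 0.676 and 0.647, and the EX points lie low on the Tpsb2 axis.

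Among 10243 other genes in the upper 60%, those whose signal followed Tpsb2 most closely over the 12 arrays were Abcf2 (r = 0.892), Ercc1 (0.86), Acad8 (0.858), Srp68 (0.837) and Ptpa (0.836). Abcf2 encodes an ATP-binding cassette protein, Ercc1 a DNA excision repair protein, Acad8 an enzyme of valine breakdown, Srp68 a part of the signal recognition particle and Ptpa an activator of protein phosphatase 2A. With group means removed these correlations were 0.541 to 0.767. For Cpa3 they were Spats2 (0.868), Tenm3 (0.848), LOC103691468 (0.839), Ss18 (0.83) and Fahd2a (0.828). None of these 10 genes is on the mast cell lists, but only 28 of the 10243 genes are, so nothing is read from this. The correlations are over arrays that share scaling, and they carry no p.

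Other mast cell genes were read from 4 further lists. Of 21 listed granule genes 11 were on the array and 5 lay in the upper 60%, of which limma called 0 in any comparison. In EX minus SED 3 were above 0 and 2 below, with a median of 0.12 (2 above and 3 below, with a median of -0.0025, without the first SED array), PA minus SED was above 0 for 4 of 5, and EX minus PA was below 0 for 5 of 5, with a median of -0.09. Over all 10244 tested genes the medians of the 3 comparisons were 0.03, 0.05 and -0.02, with 42.7%, 39.8% and 55.3% of genes lower. Mcpt1l1, a member of the chymase-like protease family, had signals of 5.11, 4.78, 4.89 and 5.10 in EX, 5.15, 4.86, 5.42 and 5.53 in PA, and 5.12, 5.59, 5.01 and 5.53 in SED. Its mean of 5.17 lay under the background limit of 5.22. EX had the lowest array, and the groups overlapped. Mcpt1l1 differed by -0.34 ± 0.17 in EX minus SED (limma adjusted p = 0.368), and PA minus SED was -0.07 (adjusted p = 0.865). Its signal correlated with Tpsb2 at r = 0.757, the highest of the 28 tested genes on these 4 lists, and 0.733 with group means removed. Over these 28 genes r with Tpsb2 ran from -0.687 to 0.757 with a median of -0.15, and r with Cpa3 from -0.438 to 0.657 with a median of 0.15. Slc18a2, the vesicular transporter that loads histamine, differed by 0.33 ± 0.20 in EX minus SED (limma adjusted p = 0.461) and by 0.41 in PA minus SED (adjusted p = 0.361). Without the first SED array these were 0.09 and 0.17. Mcpt10, a protease of the same family as Mcpt1l1, differed by 0.17 ± 0.20 (adjusted p = 0.708) and by 0.53 (adjusted p = 0.262), or by -0.0025 and 0.35 without that array. Mcpt10 had a mean of 5.04, also under the background limit of 5.22. Hdc, which makes histamine, lay near background at a mean of 3.84.

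Of 26 listed receptor and signalling genes, 21 were on the array and 11 were tested, of which limma called 0. EX minus SED and PA minus SED were each above 0 for 8 of 11, with medians of 0.07 and 0.05, and EX minus PA was above 0 for 8 of 11 with a median of 0.07. Kitlg, which encodes stem cell factor, was 8.65 to 8.88 in EX and 8.13 to 8.63 in SED. These ranges did not overlap, as for 4.39% of the brighter probe sets in the higher direction, and the difference of 0.29 ± 0.13 did not pass the test (limma adjusted p = 0.322). Il33, a cytokine that activates mast cells, differed by 0.71 ± 0.28 in EX minus SED (adjusted p = 0.252), with the lowest value of 6.28 in the first SED array. Lyn, a kinase downstream of the IgE receptor, differed by 0.65 ± 0.25 (limma adjusted p = 0.24). Ms4a2, the beta chain of that receptor, had a mean of 3.96, near background. Its gamma chain Fcer1g, which macrophages also express, had a mean of 9.59 and differed by 0.03 in EX minus SED. Il1rl1, on the same list but near background at a mean of 4.44, differed by -0.35 in EX minus SED (limma adjusted p = 0.12). In PA minus SED Il1rl1 differed by -0.34 (limma adjusted p = 0.15). Without the first SED array, EX minus SED was 0.18 for Kitlg, 0.42 for Il33, 0.42 for Lyn and -0.26 for Fcer1g, and 7 of 11 genes of the list were above 0.

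The 4 tested genes of lipid mediator synthesis, of 11 listed and 10 on the array, had medians of 0.16 in EX minus SED, 0.34 in PA minus SED and -0.09 in EX minus PA, with 0 called by limma. Ptgs2, an inducible prostaglandin synthase, differed by 0.11 ± 0.27 in EX minus SED (limma adjusted p = 0.864) and by 0.70 in PA minus SED (adjusted p = 0.269). Hpgds, the prostaglandin D synthase of mast cells, differed by 0.21 ± 0.18 (limma adjusted p = 0.599) and by 0.38 (adjusted p = 0.341). The mean of Hpgds was 5.02, under the background limit of 5.22. Pla2g4a, a phospholipase, differed by -0.02 (adjusted p = 0.948) and by -0.19 (limma adjusted p = 0.49). Without the first SED array, EX minus SED was 0.015 for Ptgs2 and 0.04 for Pla2g4a. Of 11 transcription regulators of the mast cell lineage, 10 were on the array and 8 were tested, with 5 above 0 and 3 below in each comparison, medians of 0.19, 0.08 and 0.03, and 0 called. Lyl1, a basic helix-loop-helix factor of blood cell precursors, differed by -0.43 ± 0.17 in EX minus SED (limma adjusted p = 0.262). Cbfa2t3, a corepressor, differed by 0.25 ± 0.10 (limma adjusted p = 0.252) and Stat5a, which acts downstream of Kit, by 0.34 ± 0.14 (limma adjusted p = 0.276). The EX arrays of Cbfa2t3 (9.24 to 9.39) all lay above its SED arrays (8.97 to 9.18), as for 3.45% of the 10244 tested genes. Many of these genes are also expressed by other cells of the ventricle.

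Of 12 genes for targets of mast cell mediators, 4 were tested, with 0 called by limma. All 4 were below 0 in EX minus SED (median -0.23) and in PA minus SED (median -0.18). Over all 10244 tested genes 42.7% and 39.8% were below 0 in these comparisons. Ace, the angiotensin-converting enzyme, differed by -0.49 ± 0.21 in EX minus SED (limma adjusted p = 0.28). Tgfb1, a growth factor that chymase can release from matrix, differed by -0.19 ± 0.08 (limma adjusted p = 0.292). Its EX arrays (5.19 to 5.29) all lay below its SED arrays (5.37 to 5.47), as for 3.31% of the 10244 tested genes. Agt, the angiotensin precursor, differed by -0.19 (limma adjusted p = 0.551). Without the first SED array 3 of 4 were below 0 in each comparison, with medians of -0.13 and -0.12. Agtr1a, an angiotensin receptor gene named after its values were seen, had a mean of 5.09, under the background limit of 5.22. Without that array EX minus SED was -0.05 for Agt and 0.26 for Agtr1a, against -0.26 for Agtr1a with all arrays. The EX minus SED medians of the lipid mediator and transcription lists were then 0.03 and 0.06. Without the third SED array the EX minus SED medians were 0.17 for the granule, 0.26 for the receptor and signalling, 0.26 for the lipid mediator, 0.22 for the transcription and -0.42 for the mediator target list.

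For other blood cells, each list's level was taken as the mean deviation of its tested genes from their own means over the 12 arrays. Only the mast cell list used all 6 members, which are Tpsb2, picked from these arrays, and 5 genes near background. These 6 genes gave -0.23 to -0.03 in EX, -0.22 to 0.23 in PA and -0.25 to 0.16 in SED. The 15 macrophage genes, of 15 listed, gave -0.14 to -0.04 in EX, -0.13 to 0.18 in PA and -0.14 to 0.68 in SED, and 13 of 15 were below 0 in EX minus SED. The 8 tested lymphocyte genes of 16 gave -0.27 to 0.03 in EX, -0.37 to 0.31 in PA and -0.26 to 0.58 in SED. In EX minus SED 8 of 8 were below 0. Of these 8, Cd3e (mean 4.98) and Klrb1a (5.19) lay under the background limit of 5.22. Over all 10244 tested genes 42.7% were below 0 in EX minus SED. The 3 tested neutrophil genes of 11 gave -0.71 to 0.49 in EX, -0.35 to 0.72 in PA and -1.47 to 1.59 in SED. The third SED array was highest for all 3 of these lists. For Tpsb2 (5.25) and Kit (3.99) it was the lowest SED array. For Tpsab1 (4.84) and Fcer1a (3.55) it was the highest SED array. Without that array 8 of 15 macrophage genes, 6 of 8 lymphocyte genes and 2 of 3 neutrophil genes were below 0 in EX minus SED, and Tpsb2 differed by -0.49 in EX minus SED. Without the first SED array these counts were 14 of 15, 7 of 8 and 2 of 3, with medians of -0.24, -0.32 and -1.04. Of 9 basophil and eosinophil genes, 2 were tested, with 1 above and 1 below 0 in each comparison. Limma called 0 genes on each of these lists. The level of the 9 heart muscle genes stayed within 0.11 of 0 in every array. Of the genes that mark other Kit-expressing cells, Dct, Tyr, Tyrp1, Pmel and Mlana of melanocytes lay near background, with means of 3.46 to 3.96. Ano1, of interstitial cells of Cajal, had a mean of 6.98 and differed by 0.34 in EX minus SED (limma adjusted p = 0.479) and by 0.37 in PA minus SED (adjusted p = 0.436). The part of these cell types in the members' values was not tested.

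**Figure D5:**
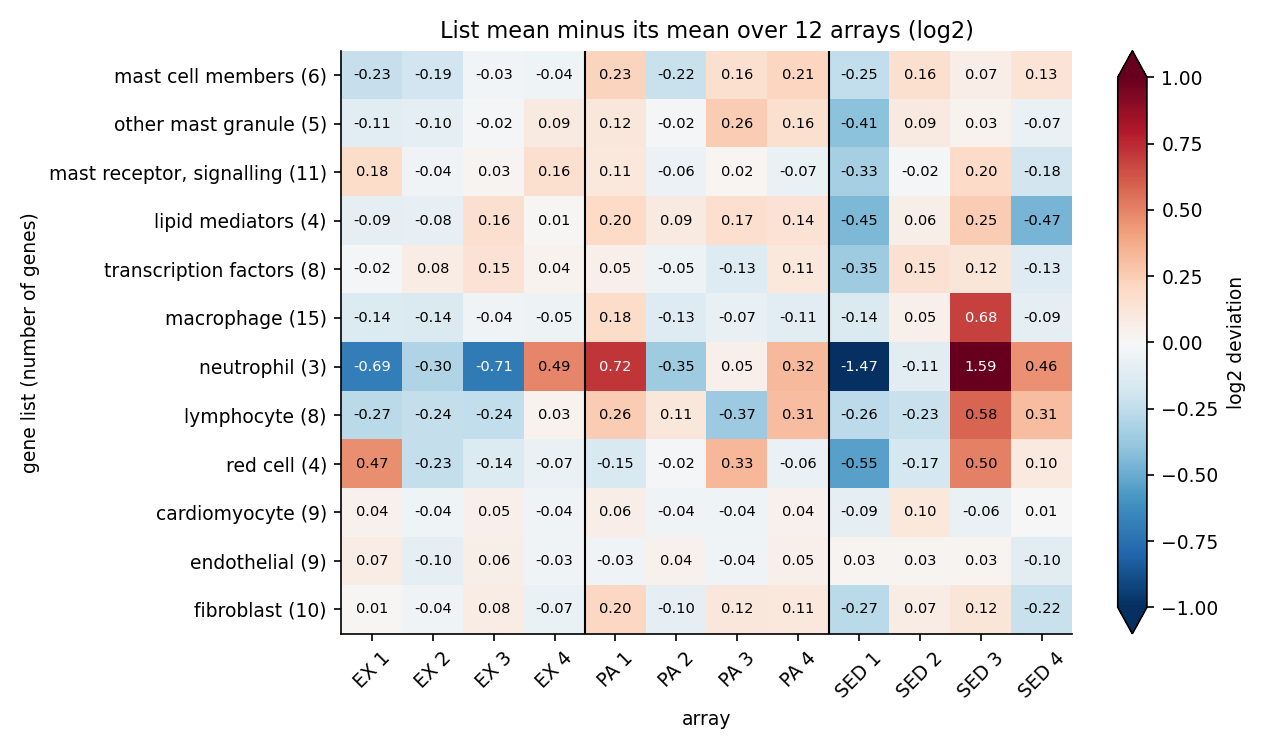
Mean log2 deviation of each gene list (rows, with the number of genes) in each EX, PA and SED array (columns), printed and shown as colour with the scale ending at 1 above and below 0. Deviations are from each gene's own mean over the 12 arrays. The macrophage and neutrophil lists are highest in the third SED array, at 0.68 and 1.59, while the mast cell genes stay between -0.25 and 0.23.

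Of the remaining lists, limma called 0 genes in any comparison. For the counts below, 42.7% of all 10244 tested genes were below 0 in EX minus SED. In EX minus SED the counts above and below 0 were 7 and 3 of 10 fibroblast genes, 3 and 6 of 9 endothelial genes, 3 and 4 of 7 smooth muscle and pericyte genes, 2 and 2 of 4 red cell genes, 2 and 1 of 3 adipocyte genes, and 2 and 2 of 4 epicardial genes. In EX minus SED without the first SED array the counts were 5 and 5 for fibroblast genes and 1 and 3 for red cell genes. Tpsb2 then differed by -0.42 in EX minus SED and by 0.08 in PA minus SED.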

How the data were processed

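Left ventricle RNA was prepared with a fibrous tissue kit and 6 µg went into each array, per the labels' protocols. The authors deposited a table of 31099 rows by 12 arrays, holding log2 values to 2 decimals. Both MAS5 and RMA appear in the submitters' processing notes with no role given, so the background correction behind these log2 values is not known here. The 57 control rows were left out. Gene symbols came from the platform annotation: 20826 probe sets had 1 symbol, 436 had several and 9780 had none listed.

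Groups came from titles and descriptions. Differences were fitted with limma 3.58.1 in R 4.3.3 with 3 group means (9 residual degrees of freedom), and p-values were two-sided and adjusted by Benjamini-Hochberg at 0.05. The fit covered the 18626 probe sets in the upper 60% by mean, and all 31042 for the members, of which 5 lay under that limit. A gene was represented by its brightest probe set. The rule named every member, up to 3 genes of each other list with the smallest p, and the 5 genes most like Tpsb2 and Cpa3. Hdc, Ms4a2, Fcer1g, Il1rl1, Agtr1a, Klrb1a and the melanocyte genes were named after their values were seen. So were Gcg, Krt10, Cyp2e1 and Alb of the list that ventricle should not express. Correlations were planned for members above the limit, and since only 1 passed, all 6 were used, a choice made after seeing the data. They used 100000 permutations. Members and lists were chosen with earlier results of these data known. The fit was tested on simulated data. Sequences came from RefSeq on GRCr8, which held all 6 members. The number of arrays limits precision. Scaling, filter, offset, variance model, weights, samples in the fit, pairing, threshold, averaging and left-out arrays were varied. List values without SED array 1 or 3 were added after seeing the data.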

Additional observations from a re-analysis of the deposited data

Results flagged for a closer look

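In 162 groups of 4 arrays, covering the 54 genes examined, 6 had 1 array standing apart from the other arrays of its group by more than Dixon's 95% critical value for the gap over the range. Chance gives about 1 in every 20 groups. Among the members, Fcer1a was 3.87 in the fourth EX array, with 2.98 to 3.05 in the other EX arrays. Slc18a2 was 7.93 in the first SED array (other SED arrays 8.81 to 8.95), Lum was 9.83 there (others 10.34 to 10.40) and Fabp4 was 10.84 (others 11.56 to 11.67). Hpgds was 5.47 in the second PA array (others 5.10 to 5.12), and Emcn was 9.77 in the second EX array (others 9.92 to 9.93).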

How the results depend on the processing

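Limma called 0 member probe sets under the alternatives, but only Tpsb2, the gene picked from these arrays, was tested in them, apart from the setting with no filter (6 members) and the stricter filter (none), so this says nothing of stability. Over all probe sets, EX minus SED gave 8 calls with array weights, 4 at an adjusted p of 0.1, 2 with probe sets of a gene averaged, and 0 to 2 with 1 array left out (1 without the second EX array, 2 without the first SED array). PA minus SED gave 1 call with array weights and 0 to 0 with 1 array left out, as did EX minus PA. With the replicate number as a block, 0 probe sets were called in each comparison. The numbers did not pair the arrays, with correlations of deviations of -0.208 to 0.134 between same-numbered arrays. The causes were not tested.

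Of 323 recomputed member differences, 295 moved by at most 1 SD without changing direction. Another 2 moved further (Tpsb2 with the offset of 32), and 26 changed direction, 21 of them with 1 array left out. The 26 hold 0 for Tpsb2, but that gene was picked from these arrays. Its EX and PA arrays did not overlap, so its direction there was bound to hold with 1 array left out. The count of 0 therefore says nothing of its stability. Fcer1a in EX minus SED, at 0.00 in the report, was recomputed apart and ran from -0.21 to 0.10. Tpsb2 ran from -0.56 to -0.47 in EX minus PA, from -0.49 to -0.31 in EX minus SED and from 0.02 to 0.19 in PA minus SED with 1 array left out. Quantile normalization turned EX minus SED to 0.024 for Tpsab1 and 0.10 for Cma1, and PA minus SED to 0.10 for Tpsab1. Array weights turned PA minus SED to -0.088 for Cpa3 and -0.020 for Cma1. With 1 array left out, EX minus SED ran from -0.27 to 0.074 for Cpa3 and from -0.23 to 0.14 for Cma1. PA minus SED ran from -0.10 to 0.14 for Tpsab1, -0.048 to 0.29 for Cpa3, -0.13 to 0.24 for Cma1, -0.10 to 0.21 for Kit and -0.12 to 0.17 for Fcer1a. EX minus PA ran from -0.22 to 0.02 for Tpsab1 from -0.28 to 0.12 for Fcer1a, from -0.42 to -0.09 for Cpa3 and from -0.52 to -0.20 for Kit. Under quantile normalization and with 1 array left out, 0 of the 10 member pairs without Tpsb2 passed, with r of 0.597 to 0.773 for Tpsb2 with Kit over these settings. Signals of 5 members lay near background, which limits what their differences can show.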
